A study of Mus musculus with 12 samples.

Results

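The genes described here are 9 mouse nonclassical MHC class I genes of the H2-T, H2-Q and H2-M families: H2-T3, H2-T10, H2-T22, H2-T23, H2-T24, H2-M3, H2-Q4, H2-Q6 and H2-Q7. They were taken by name from the 55335 gene identifiers that both count tables carry, and each name matched 1 identifier. H2-T3 was chosen by its counts, which were 0 in midostaurin-treated cells and not in control cells, so its values in cultured cells are given as a description without a test. The question attached to it was whether the counts missing from H2-T3 reappeared in a gene of similar sequence.

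RNA sequencing covered 12 libraries in 4 groups of 3. Subcutaneous CT26 tumors in mice were given midostaurin (40 mg/kg, begun 7 days after the cells were inoculated and kept up for 2 weeks) or vehicle. CT26 cells in culture, labelled wild type, received midostaurin at 1 µM or DMSO, and the labels give 48 h of treatment for the drug. CT26 is a colorectal carcinoma line derived from a BALB/c mouse, and midostaurin inhibits several kinases. The labels give no strain, sex or age of the host mice, and nothing in them tells whether the 3 libraries within a group are separate cultures or animals. The p-values therefore measure the spread between these samples, which may be technical. Treated tumors are numbered 2 to 4 here, after the columns of the deposited table, while the labels number them 1 to 3.

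MHC class I molecules consist of a heavy chain and the light chain beta-2 microglobulin, and most of them hold a peptide for inspection by lymphocytes. Classical heavy chains (H2-K1, H2-D1) are highly polymorphic and present peptides to CD8 T cells. Nonclassical heavy chains vary less between individuals, are often made at lower levels, and are read by natural killer cells, gamma-delta T cells or restricted T cell populations. Many class I promoters share an enhancer with an NF-kappaB site, an interferon-stimulated response element and a module bound by the RFX complex and the transactivator NLRC5, through which interferon-gamma raises their transcription.

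Because class I genes resemble each other, reads of one can be counted for another, so the sequence that each of the 9 genes shares with other genes was measured. In the GENCODE M21 transcripts (GRCm38, the build that mm10 stands for), 0 of 3355 distinct stretches of 75 bases in H2-T3 transcripts occurred in a transcript of another gene. At 50 bases, 28 of 3131 did, or 0.894%. H2-M3 was also set apart, with 0% at 75 bases. H2-T24 shared 0.459%, H2-T23 5.91% and H2-Q4 7.02% of their stretches of 75 bases. H2-T10 (16%), H2-Q7 (17%), H2-Q6 (17.9%) and H2-T22 (18.5%) shared the most. All 581 shared stretches of H2-T10 lay in 1 other gene, H2-T22, and H2-Q6 and H2-Q7 had an identical run of 265 bases. Counts of these last 4 genes are therefore uncertain between near copies, because the RSEM program named in the submitters' processing notes divides ambiguous reads by an estimate. The read length is not given in the sources used here.

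**Figure D1:**
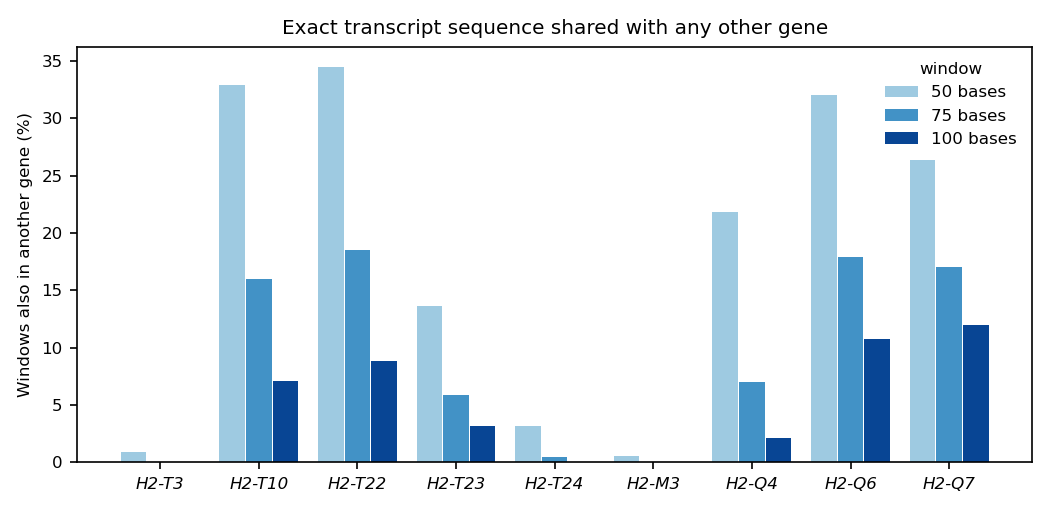
Share of distinct transcript stretches (percent, vertical axis) of each of the 9 genes that occur unchanged in a transcript of any other gene, for stretches of 50, 75 and 100 bases (bars, light to dark). H2-T3 and H2-M3 stood at 0% from 75 bases on, whereas H2-T10, H2-T22, H2-Q6 and H2-Q7 stayed at 7.06% to 12% at 100 bases.

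The longest stretches that H2-T3 shares with its relatives are printed here because a read has to lie inside them to fit both genes exactly. They lie in exon 4 of H2-T3 (chr17:36187325-36187390, chr17:36187333-36187398 and chr17:36187406-36187454, minus strand, GRCm38), which in class I genes encodes the alpha-3 domain. The first is shared by H2-T3, H2-T22 and Gm11127 over 66 bases, and Gm10499 shares 65 of them. The second, also of 66 bases, is shared with H2-Q5, and every base of both is coding. The third, of 49 bases, is the longest run shared with H2-Q10 and with H2-Q2, printed because the counts of these genes are set beside those of H2-T3.
H2-T3, run shared with H2-T22 and Gm11127: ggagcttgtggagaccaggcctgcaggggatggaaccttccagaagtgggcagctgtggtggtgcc
H2-T3, run shared with H2-Q5: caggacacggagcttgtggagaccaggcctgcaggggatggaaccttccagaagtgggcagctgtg
H2-T3, run shared with H2-Q10 and H2-Q2: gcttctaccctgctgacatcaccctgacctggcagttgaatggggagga
With H2-T10 the longest run was 61 bases, with H2-T23 57, with H2-Q6 and H2-Q7 52 each, with H2-M3 and H2-T24 43 each, and with H2-Q4 29. Counting stretches of 75 bases that differ from a class I relative at up to 2, 4 or 7 positions gave 30, 176 and 226 of 3355 (0.894%, 5.25% and 6.74%). CT26 carries the BALB/c form of this region, whereas the mm10 genome is C57BL/6J, so the letters of the CT26 transcripts may differ from those printed. How the strain difference affects the counts was not tested.

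H2-T3 (ENSMUSG00000054128) lies at chr17:36185572-36190287 on the minus strand, has 10 annotated transcripts and overlaps no other annotated gene. It encodes TL, the thymus leukemia antigen, a class I molecule that binds the CD8 alpha homodimer. H2-T3 was counted 0, 0 and 0 times in midostaurin-treated cells 1, 2 and 3, against 42, 31 and 37 times in DMSO cells 1, 2 and 3. In tumors it was counted 151, 177 and 236 times in midostaurin tumors 2, 3 and 4, against 174, 218 and 205 times in vehicle tumors 1, 2 and 3. The treated cells had no count in any library and every control cell library had at least 31, while the tumor groups overlapped. Among all 55335 identifiers, H2-T3 was the single gene with at least 20 counts in every library of 1 cell group and at most 3 in every library of the other. H2-T3 was picked for such counts, so this is a description.

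The lowest control count, 31, has an exact Poisson interval of 21.06 to 44 at 95% confidence, which covers counting error only. With a floor of 3 counts per library, the mean level of H2-T3 in DMSO cells was 12.2 times the mean floor of midostaurin-treated cells. This ratio of means leaves out the counting error of the DMSO libraries and is no lower bound. H2-T3 passed the filter on low counts in cells only through the DMSO group. In cells 0% of 14538 tested genes passed an adjusted p of 0.05 (edgeR quasi-likelihood test, Benjamini-Hochberg adjustment), so no gene was called, H2-T3 included. An unadjusted p under 0.05 was found for 75 genes. Neither value is read as a test of H2-T3, since the same libraries picked it. DESeq2 called 2 genes, blocking on the replicate number called 8, and scaling by total counts alone called 1. H2-T3 was called in at least 1 of the 13 alternative fits in cells, which is no test of it either.

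The loss of H2-T3 counts was then set beside the change of listed class I and peptide-loading genes. After scaling each cell library to the mean total, H2-T3 changed by -110.1 counts summed over 3 libraries (midostaurin minus DMSO), with -40.1, -31.3 and -38.7 in the same-numbered pairs 1, 2 and 3. It was set beside 37 genes, namely the 8 other genes of the family and the listed class I and peptide-loading genes on the same chromosome, of which 29 had counts in cells. Their summed change was above 0 in 16 and below 0 in 13. A gain of at least 110.1 counts was found in 4 of the 29: H2-Q2, H2-Q10, H2-D1 and Tap2. Gm8810, Gm9574 and Gm49692, which share stretches of 50 bases with H2-T3, were not among the 37. With them added, 31 of 40 genes had counts and the same 4 gained at least the loss.

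H2-Q2 gained 388.6 ± 119 counts (half-width of the 95% counting interval), and its changes in pairs 1, 2 and 3 were 17.9, 285.5 and 85.2. The gain lay mostly in pair 2, and in pair 1 it was smaller than the H2-T3 loss of that pair. H2-D1, which encodes a classical heavy chain, gained 294.0 ± 686 counts, with -433.5, 122.8 and 604.8 in the 3 pairs, so that its counting error was several times the H2-T3 loss. Tap2, a subunit of the peptide transporter and not a class I heavy chain, gained 633.9 ± 240 counts, with 332.2, 199.0 and 102.7. H2-Q10, which encodes a secreted class I molecule, gained 136.3 ± 116 counts, with 49.97, 42.06 and 44.29 in pairs 1, 2 and 3.

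H2-Q10 and Tap2 gained at least the H2-T3 loss in each of the 3 pairs. Of all 14538 genes tested in cells, 498 did so, or 3.43%, many of them with far more counts than H2-T3. H2-Q10 itself held 711, 557 and 564 counts in midostaurin-treated cells, against 669, 517 and 504 in DMSO cells, and its log2 fold change of 0.12 ± 0.14 (SE) was not called by edgeR. The groups of H2-Q10 overlapped. Its longest exact run in common with H2-T3 is the 49-base one printed above, and 3 of 3355 H2-T3 stretches of 75 bases come within 2 mismatches of it.

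The relatives that share the longest runs with H2-T3 changed by less than the loss in sum. H2-T22, which shares the 66-base run, was counted 1758, 1505 and 1713 times in midostaurin-treated cells, against 1869, 1565 and 1535 times in DMSO cells. Its summed change was -7.46 ± 195 scaled counts, an interval wide enough to hold a gain as large as the loss, and the groups overlapped. Gm11127, a predicted class I gene that shares the run too, changed by 7.22 ± 95.1, with 4.19, -24.2 and 27.2 in the 3 pairs. H2-Q5 changed by 48.5 ± 76.8, with 17.4, 77.5 and -46.4 in the 3 pairs, so that it gained more than the loss in pair 2 and its interval reached the summed loss. Gm10499 changed by 22.4 ± 127. Gm7030, which lies within H2-T10 on the same strand, changed by 20.9 ± 28.3 and was itself counted 0 times in DMSO cell library 3, against 50 and 47 times in DMSO cells 1 and 2. Among the cell libraries Gm7030 was at 0 in that library alone, whereas H2-T3 was at 0 in all 3 treated libraries. What lay behind either 0 was not tested.

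For 18 of the 29 genes the half-width of the counting interval was smaller than the H2-T3 loss. The upper end of the interval reached 110.1 in 3 of the 18, namely H2-T10 (61.1 ± 106), Gm8909 (54.8 ± 65.0) and H2-Q5 (48.5 ± 76.8). The other genes of the family, 8 in number and summed, held 28717 counts in midostaurin-treated cells, against 29281 in DMSO cells, a change of -658.2 ± 471.7 after scaling. This interval covers counting error only, not the spread between libraries. Such sums moved with the setting. Over all 29 genes the change was -188.3 ± 1107, against 386.5 ± 1107 with TMM-scaled totals and 1229.2 ± 896 without pair 1. Leaving out pair 1 raised the number of genes that gained at least the loss from 4 to 6, and the count stayed at 4 without pair 2 or pair 3.

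**Figure D2:**
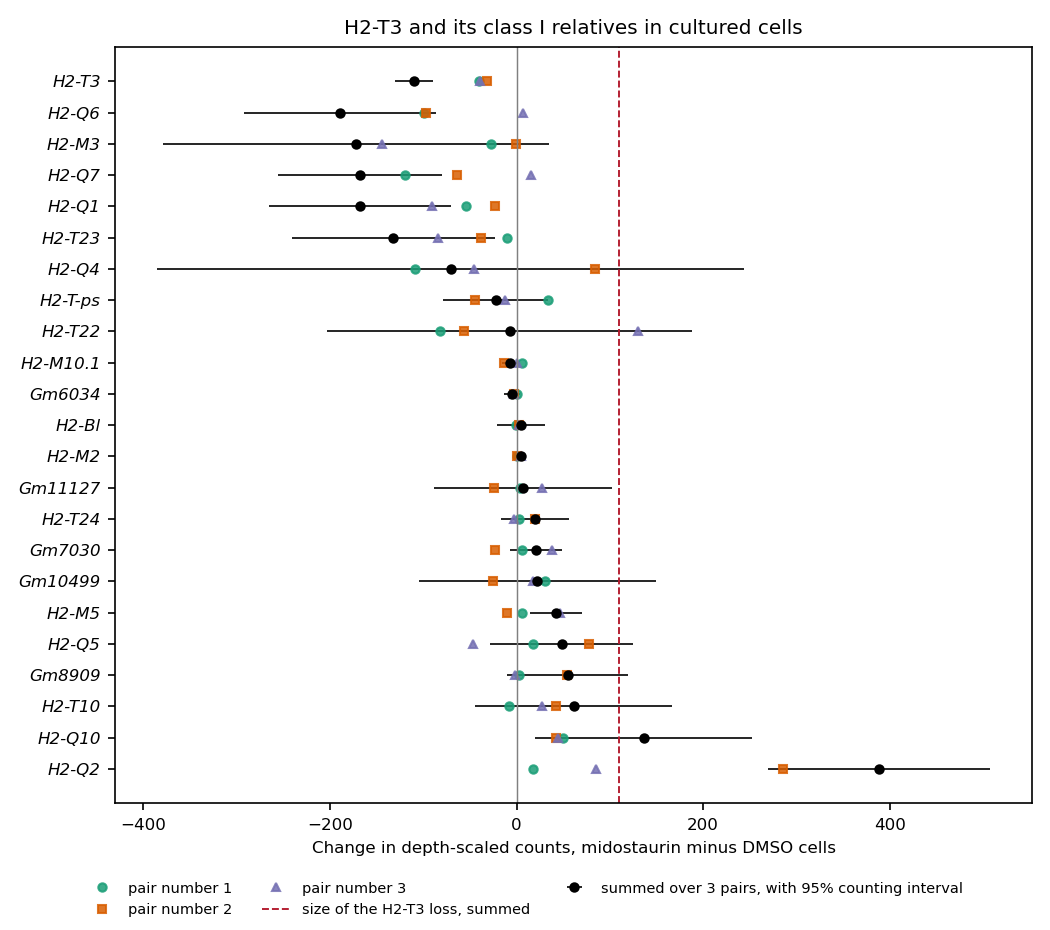
Change in counts scaled to the mean library total (midostaurin-treated minus DMSO cells, horizontal axis) for H2-T3 and the class I heavy-chain genes of the H2-T, H2-Q and H2-M regions with any count in cells, one gene per line. Black points are sums over 3 same-numbered pairs with 95% counting intervals, colored symbols are single pairs, and the dashed line at 110.1 is the size of the H2-T3 loss, which the sums of H2-Q2 and H2-Q10 exceed.

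The counts of the other genes of the family overlapped between the groups of cultured cells, given here gene by gene as raw counts. Same-numbered cell libraries deviated together (r = 0.903, 0.721 and 0.704 for numbers 1, 2 and 3). Unless a block is named, the SEs in cells come from a fit without the numbers. These SEs and the overlap of the groups thus include the spread between numbers. H2-T10 (chr17:36115876-36121465, minus strand, a polymorphic pseudogene in the annotation) and H2-T22 (chr17:36037128-36042747, minus strand) are bound by the receptors of some gamma-delta T cells. H2-T10 was counted 495, 499 and 497 times in midostaurin-treated cells, against 511, 459 and 455 times in DMSO cells. The groups overlapped, and the log2 fold changes were 0.07 ± 0.10 for H2-T10 and 0.00 ± 0.09 for H2-T22 (SE).

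H2-T23 (chr17:36029773-36032855, minus strand) encodes Qa-1, which shows signal-sequence peptides of other class I chains to CD94/NKG2 receptors. It was counted 651, 410 and 423 times in midostaurin-treated cells, against 671, 449 and 490 times in DMSO cells. H2-T24 (chr17:36005695-36020560, minus strand), a less studied neighbor, was counted 147, 33 and 8 times in midostaurin-treated cells, against 146, 14 and 10 times in DMSO cells. In both genes the libraries numbered 1 were high in either group, for H2-T24 by several fold, and the groups overlapped. By pair, the scaled counts of H2-T23 were lower with midostaurin in all 3, by -10.1, -38.1 and -84.0, and with the replicate number as a block the log2 fold change was -0.13 ± 0.08 (SE) and not called.

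H2-Q4 (chr17:35379617-35385290, plus strand) encodes the Qb-1 antigen, and H2-Q6 (chr17:35424850-35430055, plus strand) and H2-Q7 (chr17:35439155-35443773, plus strand) encode Qa-2. H2-Q4 was counted 4991, 3889 and 4043 times in midostaurin-treated cells, against 5178, 3817 and 3960 times in DMSO cells. H2-Q6 was counted 505, 349 and 440 times in midostaurin-treated cells, against 616, 446 and 420 times in DMSO cells. H2-Q7 was counted 317, 299 and 318 times in midostaurin-treated cells, against 447, 363 and 293 times in DMSO cells. All 3 genes overlapped between the groups, with log2 fold changes of 0.00 ± 0.13, -0.19 ± 0.18 and -0.23 ± 0.15 (SE).

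H2-M3 (chr17:37270220-37274484, plus strand) encodes a molecule that presents peptides beginning with N-formyl methionine, such as bacteria and mitochondria make. It was counted 1483, 2191 and 1753 times in midostaurin-treated cells, against 1533, 2198 and 1836 times in DMSO cells. Here the libraries numbered 1 were the low ones in both groups. Across the 8 genes the log2 fold changes in cells ran between -0.23 and 0.17. All 8 overlapped between the groups, where 2.46% of all tested genes did not (1.15% with midostaurin lower). The groups of H2-T3 lay apart, which its choice fixed.

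The libraries numbered 1 stood apart for some other genes too. Psmb9, an immunoproteasome subunit, measured 2.99, 1.28 and 0.77 CPM in midostaurin-treated cells, against 3.29, 1.69 and 1.02 CPM in DMSO cells (CPM, the count relative to the TMM-scaled library total). Tap1, the partner of Tap2 in the peptide transporter, measured 32.9, 13.1 and 10.0 CPM in midostaurin-treated cells, against 33.9, 14.4 and 12.4 CPM in DMSO cells. Without the midostaurin library numbered 1, the log2 fold change of H2-T24 in cells was -1.37, and without the DMSO library of that number it was 2.29. Nlrc5, the class I transactivator, was lowest in these libraries, with 11.2, 23.6 and 18.4 CPM in midostaurin-treated cells, against 14.6, 18.5 and 23.1 CPM in DMSO cells. B2m was lowest there as well, with 611.9, 670.0 and 686.6 CPM in midostaurin-treated cells, against 617.2, 667.6 and 682.6 CPM in DMSO cells, so the direction differed between genes.

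Vehicle tumors were compared with DMSO cells to place the genes in tumors and in culture without the drug. Apart from H2-T3, whose DMSO values served to pick it, all genes but H2-M3 rose, by between 3.74-fold for H2-T10 and 11.9-fold for H2-T24. The promoters of 7 of the 9 genes are in the RefSeq table (GRCm38.p6), as 300 bases with 250 before and 50 after the start of transcription. The promoters of H2-T3, H2-T23, H2-T22, H2-Q4 and H2-M3 are printed to show which letters of the class I enhancer each of them holds. Capitals mark matches, on either strand, to TTTCACTT (core of the interferon-stimulated element), TGATGAC (X2 box), CCAAT (Y box) and GGGGATT (kappaB-like core).
H2-T3 promoter, chr17:36190102-36190401, minus strand: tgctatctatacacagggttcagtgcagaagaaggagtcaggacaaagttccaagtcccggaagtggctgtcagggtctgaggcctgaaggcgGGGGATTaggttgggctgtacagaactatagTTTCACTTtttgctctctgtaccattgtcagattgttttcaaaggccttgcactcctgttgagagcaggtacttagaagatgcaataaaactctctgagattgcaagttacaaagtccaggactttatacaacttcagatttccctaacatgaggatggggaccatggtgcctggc
H2-T23 promoter, chr17:36032652-36032951, minus strand: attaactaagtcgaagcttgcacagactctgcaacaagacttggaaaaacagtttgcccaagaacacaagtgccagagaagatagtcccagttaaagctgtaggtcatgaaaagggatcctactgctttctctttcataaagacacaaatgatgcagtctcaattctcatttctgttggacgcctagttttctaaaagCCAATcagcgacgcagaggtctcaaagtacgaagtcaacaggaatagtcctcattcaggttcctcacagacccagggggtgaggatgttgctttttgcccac
H2-T22 promoter, chr17:36042693-36042992, minus strand: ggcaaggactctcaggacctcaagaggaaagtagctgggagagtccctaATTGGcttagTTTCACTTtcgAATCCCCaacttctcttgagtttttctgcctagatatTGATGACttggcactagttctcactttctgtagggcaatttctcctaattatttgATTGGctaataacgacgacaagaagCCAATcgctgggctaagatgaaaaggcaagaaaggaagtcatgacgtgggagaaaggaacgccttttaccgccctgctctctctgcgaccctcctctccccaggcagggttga
H2-Q4 promoter, chr17:35379367-35379666, plus strand: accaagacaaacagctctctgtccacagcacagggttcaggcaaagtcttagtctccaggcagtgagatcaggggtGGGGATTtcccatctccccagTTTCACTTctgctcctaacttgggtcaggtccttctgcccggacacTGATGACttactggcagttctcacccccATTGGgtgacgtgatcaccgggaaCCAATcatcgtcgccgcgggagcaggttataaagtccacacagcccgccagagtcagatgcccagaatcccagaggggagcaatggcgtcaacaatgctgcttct
H2-M3 promoter, chr17:37269984-37270283, plus strand: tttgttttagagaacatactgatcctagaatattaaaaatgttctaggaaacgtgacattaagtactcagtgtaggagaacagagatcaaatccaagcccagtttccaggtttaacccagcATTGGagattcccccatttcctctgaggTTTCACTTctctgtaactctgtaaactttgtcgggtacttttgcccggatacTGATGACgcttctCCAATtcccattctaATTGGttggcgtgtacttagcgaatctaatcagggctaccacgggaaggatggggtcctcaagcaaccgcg
The promoter of H2-T3 held TTTCACTT and GGGGATT and neither TGATGAC nor CCAAT. That of H2-T23 held only CCAAT of the 4. Those of H2-T22 and H2-Q4, and also of H2-Q6 and H2-Q7, held all 4, and that of H2-M3 held TTTCACTT, TGATGAC and CCAAT. Among 32851 promoters of the same length, 1.6% held TTTCACTT, 3.23% TGATGAC, 37.4% CCAAT and 3.1% GGGGATT on either strand. No match of these words overlapped another in the printed promoters, and a match is a description of letters, not a measured site. H2-M3, with 3 of the 4 words, was not called. H2-T23, with 1 word, and H2-T22, H2-Q4, H2-Q6 and H2-Q7, with all 4, were called higher. A link between these words and the levels in tumors was not tested.

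Per gene, the Qa-1 gene H2-T23 measured 100.9, 123.3 and 90.2 CPM in vehicle tumors 1, 2 and 3, against 16.97, 12.21 and 13.96 CPM in DMSO cells 1, 2 and 3. H2-T22 measured 147, 210 and 185 CPM in vehicle tumors, against 47.3, 42.6 and 43.7 CPM in DMSO cells. H2-T10 measured 38.9, 54.8 and 49.8 CPM in vehicle tumors, against 12.93, 12.48 and 12.96 CPM in DMSO cells. For these 3 genes every tumor lay above every cell library. The log2 fold changes were 2.86 ± 0.19 for H2-T23 (adjusted p = 5.31e-06, edgeR), 2.02 ± 0.13 for H2-T22 and 1.90 ± 0.12 for H2-T10 (SE, adjusted p = 5.04e-06 for both, edgeR).

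H2-T3 measured 4.41, 5.90 and 4.74 CPM in vehicle tumors, against 1.06, 0.843 and 1.05 CPM in DMSO cells. H2-T24 measured 18.4, 21.9 and 12.2 CPM in vehicle tumors, against 3.69, 0.381 and 0.285 CPM in DMSO cells. Neither gene overlapped between the groups. The log2 fold change of H2-T3 was 2.34 ± 0.24 (SE), given as a description with no test, since the DMSO libraries served to pick it. H2-T24 rose by 3.58 ± 1.04 (SE, adjusted p = 0.0179, edgeR), a call that was lost without DMSO library 2 (3.12, adjusted p = 0.0612, edgeR) or DMSO library 3 (3.10, adjusted p = 0.0563, edgeR). Without DMSO library 1, the high one, the value was 5.70.

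Of the Qa-2 genes, H2-Q6 measured 107, 126 and 114 CPM in vehicle tumors, against 15.6, 12.1 and 12.0 CPM in DMSO cells. H2-Q7 measured 64.0, 69.1 and 67.3 CPM in vehicle tumors, against 11.3, 9.87 and 8.35 CPM in DMSO cells. H2-Q4 measured 508, 737 and 621 CPM in vehicle tumors, against 131, 104 and 113 CPM in DMSO cells. All tumors lay above all cell libraries for the 3 genes. Their log2 fold changes were 3.13 ± 0.15 for H2-Q6 (adjusted p = 1.49e-06, edgeR), 2.76 ± 0.14 for H2-Q7 (adjusted p = 2.39e-06, edgeR) and 2.42 ± 0.15 for H2-Q4 (SE, adjusted p = 3.97e-06, edgeR).

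H2-M3 was the exception. It measured 42.0, 50.5 and 40.5 CPM in vehicle tumors, against 38.8, 59.8 and 52.3 CPM in DMSO cells. The tumors fell inside the range of the cells, and the log2 fold change was -0.18 ± 0.19 (SE, 95% interval -0.60 to 0.24), which did not pass the test (adjusted p = 0.467, edgeR). In all, 7 of the 8 genes other than H2-T3 were called higher and 0 lower, where 24.5% of 16965 tested genes were called higher and 19.7% lower. The groups did not overlap in these 7 genes, all with tumors higher, where 30.1% of all tested genes lay apart with tumors higher and 24.7% with tumors lower. The median log2 fold change of the 9 genes, H2-T3 included, was 2.42 and that of all tested genes 0.04.

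**Figure D3:**
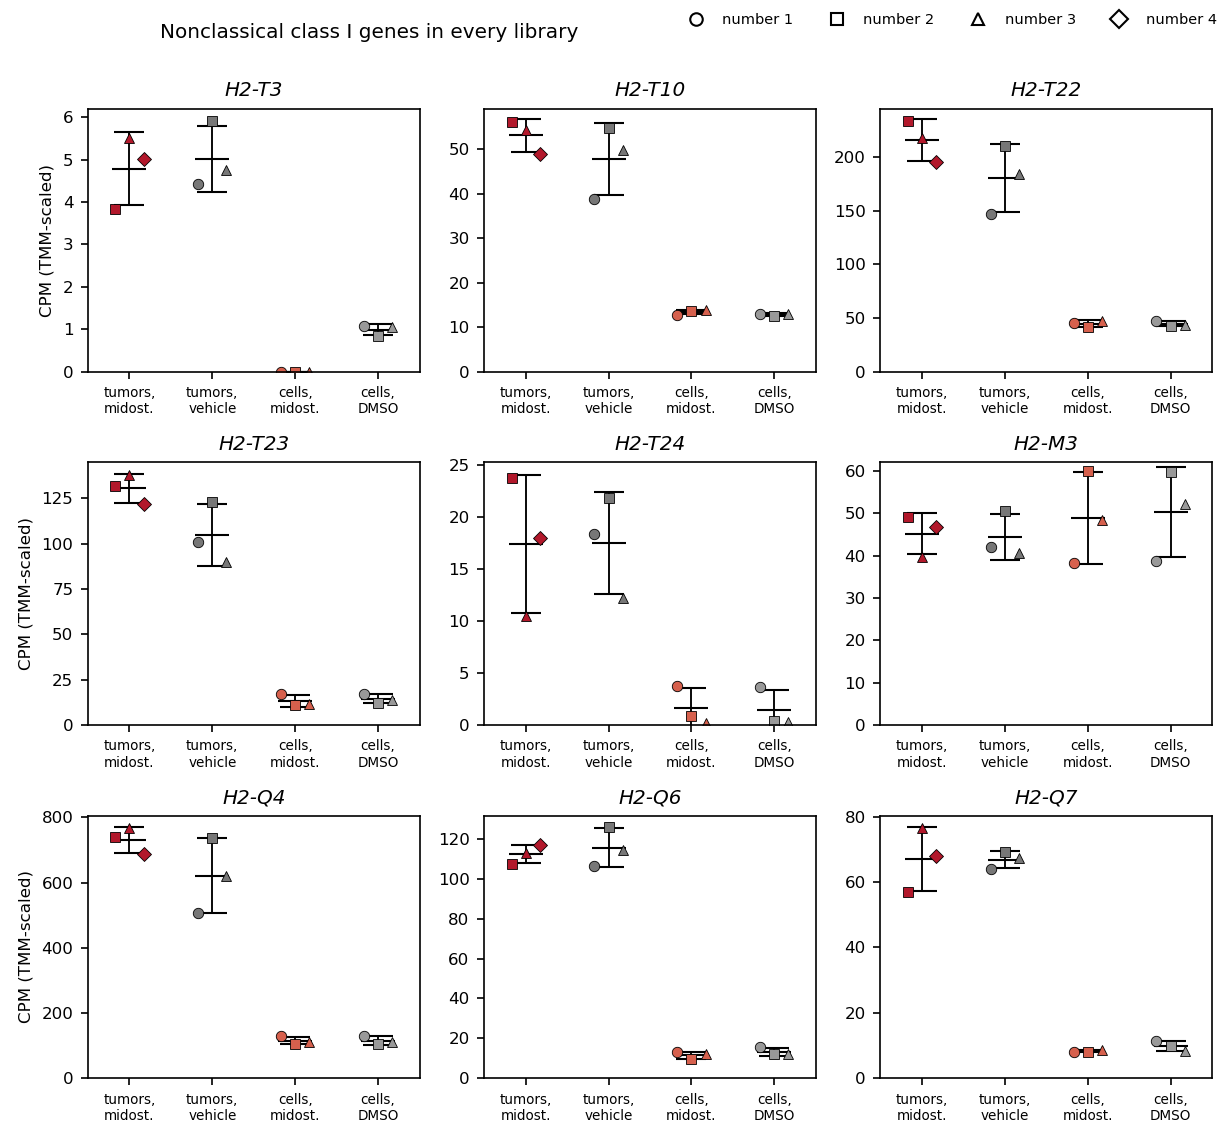
Expression (CPM of the TMM-scaled total, vertical axes starting at 0) of the 9 genes in every library, with midostaurin tumors, vehicle tumors, midostaurin-treated cells and DMSO cells from left to right. Symbols are libraries by number, and the long bar and whiskers are the mean and SD of 3. In every panel but that of H2-M3 the tumors lie above the cells, H2-T3 is at 0 in all 3 midostaurin-treated cell libraries, and the libraries numbered 1 stand out in cells for H2-T24 and H2-M3.

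The classical chains and the loading machinery stood higher in tumors too. H2-K1 rose by 2.303 ± 0.155 and H2-D1 by 1.94 ± 0.11 on the log2 scale, and B2m, the light chain, by 1.58 ± 0.11 (SE). The immunoproteasome subunits rose by 6.70 for Psmb8, 5.37 for Psmb9 and 2.87 for Psmb10, and the transporter subunits by 3.04 for Tap1 and 1.09 for Tap2. Of all tested genes, 24.5% were called higher and 19.7% lower in this comparison. Of 14 classical and loading genes tested, 11 were called higher and 0 lower. The 3 that were not, Calr, Canx and Pdia3, encode general chaperones of the endoplasmic reticulum. Of 12 other class I genes tested, 11 were called higher, 0 lower, and H2-M5 was not called. Gm6034, among the 11, passed the filter on low counts only through the tumors.

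Of 11 regulators of class I transcription, 6 were called higher, where 24.5% of all genes were, and 2 lower, a share near the 19.7% of all genes. Nlrc5 rose by 2.08 ± 0.25 and Irf1 by 1.30 ± 0.20 (log2, SE). Rfxank, a subunit of the RFX complex, fell by 0.999 ± 0.177, and Rela, an NF-kappaB subunit, fell by 0.32. Of 10 tested class I-like genes, whose chains resemble class I in fold but serve other tasks, 6 were called higher and 3 lower. Cd1d1, Raet1d and Raet1e, among the 6, passed the filter on low counts only through the tumors, so their calls are a description. Hfe, which takes part in iron regulation, rose by 2.13 ± 0.21, while Procr, the endothelial protein C receptor, fell by 1.26 ± 0.20 and H60b and Ulbp1, ligands of NKG2D, fell by 1.86 and 0.67.

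Tumors hold host cells that the cultures lack, and most but not all markers of host cells stood higher in vehicle tumors than in DMSO cells. Pan-leukocyte markers summed to 247 to 330 CPM in vehicle tumors, against at most 1.31 CPM in DMSO cells, where Ptprc and Laptm5 stood at 0. Macrophage markers summed to 708 to 1043 CPM in vehicle tumors, against 4.78 to 25.5 CPM in DMSO cells. Fibroblast markers summed to 82.9 to 237 CPM in vehicle tumors, against 15.7 to 54.2 CPM in DMSO cells. The groups overlapped for the fibroblast marker Pdgfra and for the neutrophil markers S100a8 and Cxcr2. Keratin and epithelial markers (Krt8, Krt18, Krt7 and Epcam) summed to 4.59 to 16.4 CPM in vehicle tumors, against 24.6 to 30.4 CPM in DMSO cells, where Epcam stood at 0. Of 4 intestinal markers, Cdx1 stood at 0 in every group, Vil1 at 0.14 CPM or less in DMSO cells and vehicle tumors, and Cdx2 (0.812 to 2.00 CPM in vehicle tumors, 0.997 to 2.23 CPM in DMSO cells) and Lgals4 (4.72 to 9.81 CPM in vehicle tumors, 1.06 to 1.60 CPM in DMSO cells) were detected in every library. The part of host cells in the tumor values was not tested. In such bulk samples, more cells of a type and more RNA per cell cannot be told apart, nor can tissue be told apart from the table in which each kind of sample was deposited.

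Receptors for the nonclassical molecules were counted in tumors and hardly at all in cells. Klrd1, which encodes CD94, measured 3.07, 1.95 and 3.61 CPM in vehicle tumors, and its partner Klrc1, which encodes NKG2A, 2.69, 2.60 and 2.64 CPM. Both were counted 0 times in all 6 cell libraries. Cd8a, whose product forms the homodimer that TL binds, measured 8.68, 7.12 and 11.8 CPM in vehicle tumors and was likewise at 0 in cells. Trdc, the constant segment of the gamma-delta receptor, measured 2.03, 1.08 and 0.60 CPM in vehicle tumors and was at 0 in cells. Of 13 listed receptor genes, 0 passed the filter on low counts in cells, so the 10 tested here passed it only through the tumors. All 10 were called higher in vehicle tumors than in DMSO cells, where 24.5% of all tested genes were. The filter fixed this outcome, so it is a description. Pira2 had the only count among the 10 in a cell library.

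Divided by transcript length, the order of levels also differed between tumors and cells. In vehicle tumors, H2-Q4 led with 346.8 ± 64.0 CPM per kb (SD, n = 3), followed by H2-T22 at 102.6 ± 18.1, H2-T23 at 71.2 ± 11.5, H2-Q6 at 55.4 ± 4.64 and H2-Q7 at 43.9 ± 1.68. H2-T10 at 32.3 ± 5.50 and H2-M3 at 30.8 ± 3.76 came next, and H2-T24 at 8.02 ± 2.25 and H2-T3 at 2.17 ± 0.34 came last. The values of H2-T22 and H2-T23 overlapped between libraries, as did those of H2-T10 and H2-M3. In DMSO cells, H2-Q4 led again with 64.6 ± 7.72 CPM per kb, but H2-M3 stood second with 35.0 ± 7.40, ahead of H2-T22 with 25.3 ± 1.40. H2-T23 (9.77 ± 1.64) and H2-T10 (8.64 ± 0.18) overlapped there, as did H2-Q7 (6.46 ± 0.97) and H2-Q6 (6.34 ± 0.98), and H2-T24 (0.67 ± 0.89) and H2-T3 (0.43 ± 0.05). H2-T3 thus had the lowest mean in both, and in midostaurin-treated cells as well.

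Between midostaurin and vehicle tumors, none of the 9 genes passed the test by edgeR. H2-T3 measured 3.84, 5.50 and 5.02 CPM in midostaurin tumors 2, 3 and 4, against 4.41, 5.90 and 4.74 CPM in vehicle tumors 1, 2 and 3. The groups overlapped, and the log2 fold change was -0.06 ± 0.21 (SE, 95% interval -0.56 to 0.44, adjusted p = 0.898, edgeR). H2-T23 measured 132, 138 and 122 CPM in midostaurin tumors, against 100.9, 123.3 and 90.2 CPM in vehicle tumors. Vehicle tumor 2 lay above midostaurin tumor 4, so these groups overlapped too. H2-T23 had the largest log2 fold change of the 9, 0.32 ± 0.12 (SE, 95% interval 0.03 to 0.62, adjusted p = 0.215, edgeR), which did not pass the test.

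H2-T22 measured 234, 218 and 195 CPM in midostaurin tumors, against 147, 210 and 185 CPM in vehicle tumors. H2-T10 measured 56.1, 54.4 and 49.0 CPM in midostaurin tumors, against 38.9, 54.8 and 49.8 CPM in vehicle tumors. H2-Q4 measured 740, 767 and 689 CPM in midostaurin tumors, against 508, 737 and 621 CPM in vehicle tumors. In all 3 genes vehicle tumor 1 was the lowest library, and vehicle tumor 2 lay among the treated ones. Their log2 fold changes were 0.26 ± 0.15, 0.16 ± 0.14 and 0.24 ± 0.14 (SE), with adjusted p = 0.358, 0.565 and 0.388 (edgeR).

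H2-T24 measured 23.74, 10.47 and 18.05 CPM in midostaurin tumors, against 18.4, 21.9 and 12.2 CPM in vehicle tumors. H2-M3 measured 49.1, 39.7 and 46.7 CPM in midostaurin tumors, against 42.0, 50.5 and 40.5 CPM in vehicle tumors. The spread within a group exceeded the difference for both, and their log2 fold changes were 0.01 ± 0.33 and 0.03 ± 0.12 (SE). H2-Q6 measured 108, 113 and 117 CPM in midostaurin tumors, against 107, 126 and 114 CPM in vehicle tumors. H2-Q7 measured 57.0, 76.5 and 67.8 CPM in midostaurin tumors, against 64.0, 69.1 and 67.3 CPM in vehicle tumors. The Qa-2 genes overlapped as well, at -0.03 ± 0.09 and 0.01 ± 0.11 on the log2 scale (SE).

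Of the 9 genes, 0 were called between midostaurin and vehicle tumors by edgeR, where 0.0435% of 16094 genes were called (5 or 0.0311% higher, 2 or 0.0124% lower). At an unadjusted p under 0.05 H2-T23 stood alone among the 9, against 19.9% of all genes, and DESeq2 called 0 of the 9. The groups did not overlap in 0 of the 9 genes, where 27.2% of all tested genes did not overlap. The median log2 fold change was 0.04 for the 9 genes and -0.01 for all tested genes.

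**Figure D4:**
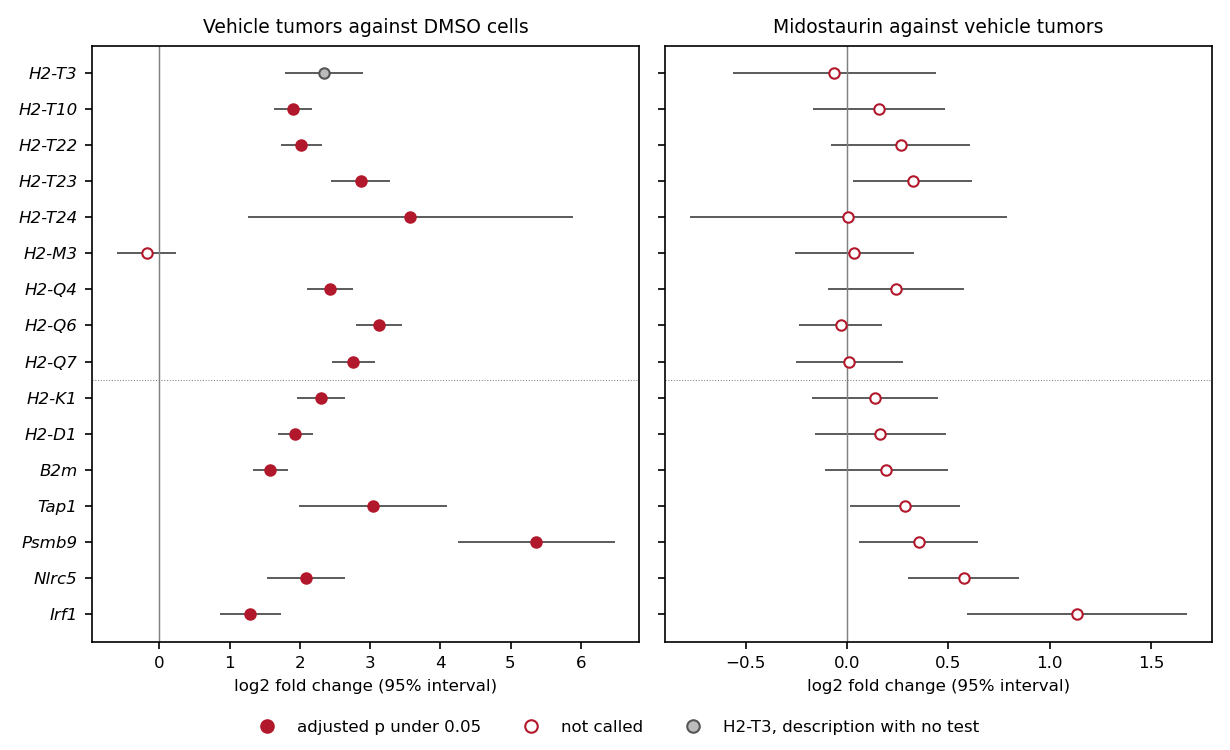
Log2 fold changes with 95% intervals (horizontal axes, different scales) of the 9 genes and, under the dotted line, of 7 genes of class I presentation and its regulation. Vehicle tumors against DMSO cells are on the left and midostaurin against vehicle tumors on the right, with filled points for an adjusted p under 0.05. On the left all but H2-M3 and H2-T3, drawn in grey as a description with no test, are filled, and no point is filled on the right, where Irf1 (1.14) and Nlrc5 (0.58) lie farthest from 0.

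Among the regulators of class I transcription, Irf1 and Nlrc5 had the smallest p-values. Irf1, an interferon-induced transcription factor, measured 212, 185 and 128 CPM in midostaurin tumors, against 98.9, 79.5 and 61.8 CPM in vehicle tumors. Nlrc5 measured 114, 124 and 116 CPM in midostaurin tumors, against 66.7, 86.2 and 85.2 CPM in vehicle tumors. All treated tumors lay above all vehicle tumors in both genes, as in 13.1% of all genes tested. The log2 fold changes were 1.14 ± 0.23 for Irf1 and 0.58 ± 0.12 for Nlrc5 (SE), and neither passed the test (adjusted p = 0.0907 for both, edgeR). Among 11 regulators these were the only 2 that did not overlap, a share no larger than the 27.2% of all genes.

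Other class I genes lay higher by value. Gm8909, a predicted class I gene, measured 25.04, 25.41 and 26.51 CPM in midostaurin tumors, against 16.4, 19.5 and 19.0 CPM in vehicle tumors, which is 0.50 ± 0.10 on the log2 scale (SE, adjusted p = 0.0942, edgeR). H2-Q10 had 0.27 ± 0.10, H2-Q5 0.24 ± 0.11 and Gm10499 0.29 ± 0.09 (SE, adjusted p = 0.200, 0.285 and 0.168, edgeR). Over all tested genes, 13.1% did not overlap with midostaurin tumors higher and 14.1% with midostaurin tumors lower. Of 12 tested genes of this list 0 were called, 7 did not overlap with midostaurin tumors higher, and 1, H2-M5, with midostaurin tumors lower. These genes share sequence with each other, so they are not separate measurements. Of the loading genes, Psmb9 had 0.35 ± 0.12, Tap2 0.36 ± 0.14 and Tap1 0.28 ± 0.11 (SE), each without overlap and with an adjusted p of 0.191, 0.218 and 0.233 (edgeR), and 0 of 14 were called.

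Of 10 tested class I-like genes, 8 had a log2 fold change below 0 and 2 above, where the median of all tested genes was -0.01. Hfe measured 16.1, 15.7 and 16.8 CPM in midostaurin tumors, against 21.7, 20.4 and 22.2 CPM in vehicle tumors. Fcgrt, the neonatal Fc receptor, measured 49.9, 55.2 and 57.2 CPM in midostaurin tumors, against 76.3, 62.6 and 72.7 CPM in vehicle tumors. Neither gene overlapped between the groups. The log2 fold changes of Hfe and Fcgrt, -0.40 and -0.38, were not called (adjusted p = 0.109 and 0.123, edgeR). None of the 10 tested was called, where 0.0435% of all tested genes were. The values of Raet1d, an NKG2D ligand, and Procr were -0.997 and -0.632, also not called. The 2 above 0 were H60b, at 0.56 ± 0.29 with no overlap between the groups, and Mill2, at 0.18 ± 0.11 (SE), neither of them called.

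Of the 10 tested receptor genes 0 were called between the tumor groups, where 0.0435% of all tested genes were. Cd160, a receptor on natural killer and T cells, measured 0.61, 0.65 and 0.91 CPM in midostaurin tumors, against 0.30, 0.16 and 0.49 CPM in vehicle tumors, with a log2 fold change of 1.18 (adjusted p = 0.222, edgeR). Pira2, an activating receptor of myeloid cells, measured 7.05, 13.02 and 8.14 CPM in midostaurin tumors, against 18.3, 15.7 and 11.4 CPM in vehicle tumors, at a log2 fold change of -0.69 (adjusted p = 0.228, edgeR). Trdc and Pirb had -0.90 and -0.51. The groups overlapped in these 3 genes and not in Cd160. Of the 10 receptor genes only Cd160 lay apart, with midostaurin tumors higher, as 13.1% of all tested genes did.

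Sums of host cell markers were set side by side for the tumor groups. Macrophage markers summed to 256 to 645 CPM in midostaurin tumors, against 708 to 1043 CPM in vehicle tumors. Of these 6 markers 0 were called, where 0.0435% of all tested genes were. Adgre1 and Cd68 overlapped between the groups, and the other 4 lay apart with midostaurin tumors lower, where 14.1% of all genes did. Pan-leukocyte markers summed to 128 to 248 CPM in midostaurin tumors, against 247 to 330 CPM in vehicle tumors. These sums overlapped, and 0 of the 3 markers were called. T cell markers overlapped, with 19.5 to 39.5 CPM in midostaurin tumors and 24.2 to 37.7 CPM in vehicle tumors. Of 5 neutrophil markers, 4 could be tested, all had log2 fold changes above 0 (median 3.77) and 0 were called. Their sum was 17.6 to 659 CPM in midostaurin tumors, against 12.9 to 26.2 CPM in vehicle tumors. The high library was midostaurin tumor 3, where S100a9 measured 369.5 CPM, against at most 8.50 CPM in the other treated tumors and at most 11.2 CPM in vehicle tumors. Without that tumor the log2 fold changes of the 9 genes lay between -0.16 for H2-T3 and 0.29 for H2-T23, and 0 were called. The part of these cell types in the tumor values was not tested.

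The tumor response minus the cell response was fitted over all 12 libraries. Apart from H2-T3, the difference ran between -0.17 for H2-T24 and 0.44 ± 0.25 for H2-T23 (log2, SE), and 0 of these 8 genes were called, where 0.00589% of 16965 genes were called. For H2-T24 the 95% interval of the difference, -3.18 to 2.83, was too wide to tell a similar from a different response. For H2-T3, which was picked for its loss in cells, the difference is a description: it was at 0 in midostaurin-treated cells and at 3.84 to 5.50 CPM in midostaurin tumors.

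Genes whose pattern was most like that of H2-T3 in the 6 cell libraries were ranked by Pearson's r of log2(CPM + 0.5). Srp14 (r = 0.981), which encodes a protein of the signal recognition particle, Gm7846 (0.974), Hhex (0.959), Gm12543 (0.957) and Rara (0.955) came first, none of them a class I gene. Their counts were never at 0: Hhex, a homeobox factor, was counted 16, 13 and 13 times in midostaurin-treated cells, against 27, 22 and 20 times in DMSO cells. With n = 6 and a 0 in every treated library, such values only follow the split between the groups. For H2-T23 over 12 libraries, Rpl22, H2-Q4 and H2-Q10 (each 0.996), Gm10499 and Psmb9 (each 0.995) came first, and these follow the split between tumors and cells. Within the 6 tumors, Psmb9 kept 0.921 with H2-T23, and Rpl22 0.731.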

How the data were processed

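RNA was sequenced as 6 libraries of CT26 cells and 6 of CT26 tumors, poly(A)-selected and directional, per the labels' protocols. The authors deposited raw counts for each gene as whole numbers, with totals of 34787389 to 38144039 in cell libraries and 33399701 to 48109497 in tumor libraries. Per the submitters' processing notes, RSEM, Bowtie2 2.3.4 and FastQC 0.11.2 were used with mm10. Annotation, RSEM version, strand setting and read length are not given in the sources used here. RSEM estimates may have been rounded before deposit, and reads of antisense partners (those of H2-T10, H2-T22, H2-T23, H2-T24 and H2-Q4) may be counted together. The 9 genes and all lists were chosen with earlier results of these data known. H2-T9, H2-T13, H2-Q8, H2-Q9 and H2-L carried no identifier, and H2-T10 and H2-T24 had no promoter entry.

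Counts were tested with edgeR 4.0.16 in R 4.3.3 (filterByExpr, TMM, quasi-likelihood F-test, Benjamini-Hochberg adjustment over all tested genes, threshold 0.05), cells and tumors apart and both together for comparisons between them. DESeq2 1.42.0 was an alternative. The procedure was tested on simulated data. Besides the 9 genes, up to 4 genes of each list with the smallest p between the tumor groups were named, apart from 1 that is not reported here, and the other genes were named after their values were seen. Treated tumor columns are numbered 2 to 4 and labels 1 to 3, so column 4 was used as a treated tumor with no number of its own. Cell libraries of 1 number deviated together (r = 0.903, 0.721 and 0.704 for numbers 1, 2 and 3), so the numbers pair them by the data and not by the labels. For tumors (r = 0.153 and -0.186) they do not. A 75-base stretch of transcript was called shared only when identical, and mismatch-tolerant counts were added after the data were seen. Counts were scaled to the mean cell total for changes in counts, and the floor was 3 counts.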

Additional observations from a re-analysis of the deposited data

Results flagged for a closer look

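In the fit of tumor against cell responses 1 gene of 16965 passed the threshold, H2-T3, an outcome that its choice fixed. It was at 3.84 to 5.50 CPM in midostaurin tumors and 4.41 to 5.90 CPM in vehicle tumors, and at 0 CPM in midostaurin-treated cells and 0.843 to 1.06 CPM in DMSO cells. It was chosen on its loss in these cells, so the difference is a description and no test of it.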

How the results depend on the processing

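The comparison of vehicle tumors with DMSO cells kept its count of calls within 1.5 times under every alternative run, with 5515 genes under a replicate block and 6007 to 8072 when each library was left out, against 7501. Of the 7 nonclassical genes called in that comparison only H2-T24 lost its call. In cells, edgeR called 0 genes, DESeq2 2, scaling by total counts 1, a fit of all 12 libraries 1 and the replicate block 8 (5 higher, 3 lower), and none of the 8 genes other than H2-T3 was called by any of them. Between midostaurin and vehicle tumors the 7 calls became 1205 with DESeq2 (722 higher, 483 lower), 0 without the low-count filter, 6 with total counts (5 higher, 1 lower, against 5 and 2), 0 with the replicate block over numbers 2 and 3, and 0 to 1 when each library was left out (1 without vehicle tumor 1 or vehicle tumor 2, otherwise 0). None of the 9 genes was called in any of these. The difference of responses gave 1 call, 76 with DESeq2, 16 with the replicate block in cells, and 1 to 6 when each library was left out (6 without midostaurin tumor 4). The causes were not tested.

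Values near 0 changed sign. Between tumors, total counts gave -0.030 for H2-T24 and -0.023 for H2-Q7, the replicate block -0.046 for H2-T24, -0.032 for H2-M3 and -0.043 for H2-Q7, and the fit of all 12 libraries -0.006 for H2-T24 (log2). Leaving out each library gave -0.162 to 0.074 for H2-T3, -0.293 to 0.276 for H2-T24, -0.040 to 0.145 for H2-M3, -0.081 to 0.106 for H2-Q7 and -0.079 to 0.039 for H2-Q6. For the difference of responses it gave -2.30 to 1.37 for H2-T24, -0.081 to 0.240 for H2-M3 and -0.044 to 0.195 for H2-T10. With stretches of 50 or 100 bases, 4 class I and loading genes gained at least as many counts as H2-T3 lost. This number was 5 with TMM-scaled totals and 4 to 6 when each replicate number was left out. Whether any count passed from H2-T3 to another gene was not tested. Depth limits H2-T3 at 31 to 42 and H2-T24 at 10 to 146 counts in DMSO cells.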
